A study of Mus musculus with 9 samples.

Results

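Metallothioneins and zinc transporters set how much free zinc a macrophage holds, and 9 of their genes were followed across 3 groups of LPS-treated mouse peritoneal macrophages. The 9 genes were chosen by symbol from the 55335 gene entries of the expression table: the metallothioneins Mt1 and Mt2, the zinc sensor Mtf1, the SLC30 exporters Slc30a1, Slc30a5 and Slc30a7, and the SLC39 importers Slc39a1, Slc39a10 and Slc39a14. Each symbol matched 1 entry. All 9 were among the 11721 genes tested, which are those with at least 1 FPKM (fragments assigned to a gene, scaled by transcript length and library depth) in at least 3 libraries. Slc39a10 passed that filter through the LPS libraries alone, so its higher level there is partly a condition of its being tested.

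Cells labelled as peritoneal macrophages, phagocytes of the mouse abdominal cavity, were kept in RPMI medium for 1 h and then treated for 4 h. All 3 groups received 1 µg/mL lipopolysaccharide (LPS), a bacterial cell wall component that activates macrophages through TLR4: the LPS group received nothing else, the LPS+EtOH group also received 5% EtOH (ethanol), and the LPS+CPZ group also received 100 µM of a compound named CPZ in the labels. Strain, age and sex of the mice are not given in the sources used here. Each group had 3 RNA-seq libraries, and each library pooled the RNA of 3 samples. Whether pooled samples were separate animals or cultures is not stated in the labels, so p-values measure only the spread between pools, which may be technical. Neither cells without LPS nor a control for the solvent of CPZ were analysed here.

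Zinc enters the cytosol through SLC39 (ZIP) proteins and leaves it, for the outside or for organelles, through SLC30 (ZnT) proteins. Metallothioneins are small cysteine-rich proteins that bind zinc, copper and other soft metals. Free zinc is sensed by the zinc finger protein MTF-1, the product of Mtf1, which binds metal response elements in the promoters of Mt1, Mt2 and Slc30a1 and drives their transcription. In macrophages these genes are known to respond to LPS, to metals and to oxidants, and zinc withdrawal or overload is part of the defence against engulfed microbes.

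The promoters of Mt1, Mt2 and Slc30a1 are shown because these 3 genes, the textbook targets of MTF-1, were high together in the LPS+CPZ libraries and in 1 LPS library. Of the 9 genes 8 matched the RefSeq table by symbol, all but Slc39a14. Each sequence runs from 250 bases before to 50 bases after the start site, 5′ to 3′ on the gene's strand, from RefSeq on build GRCm38.p6. Capitals mark matches to the core of the metal response element, searched as TGCACNC and TGCGCNC on both strands. All 3 lie on the plus strand, Mt1 at chr8:94178839-94179138, Mt2 at chr8:94172368-94172667 and Slc30a1 at chr1:191906531-191906830.
Mt1: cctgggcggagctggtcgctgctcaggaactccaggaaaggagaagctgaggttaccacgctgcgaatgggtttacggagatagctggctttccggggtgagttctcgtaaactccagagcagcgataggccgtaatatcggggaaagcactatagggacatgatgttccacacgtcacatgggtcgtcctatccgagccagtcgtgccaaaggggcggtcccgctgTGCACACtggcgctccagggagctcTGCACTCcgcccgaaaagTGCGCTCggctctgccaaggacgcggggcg
Mt2: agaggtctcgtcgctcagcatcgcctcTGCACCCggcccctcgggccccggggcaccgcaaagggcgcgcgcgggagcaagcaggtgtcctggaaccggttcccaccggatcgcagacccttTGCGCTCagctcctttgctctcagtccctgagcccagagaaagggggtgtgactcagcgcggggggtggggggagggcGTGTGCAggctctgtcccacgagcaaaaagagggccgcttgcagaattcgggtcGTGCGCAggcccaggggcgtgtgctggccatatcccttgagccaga
Slc30a1: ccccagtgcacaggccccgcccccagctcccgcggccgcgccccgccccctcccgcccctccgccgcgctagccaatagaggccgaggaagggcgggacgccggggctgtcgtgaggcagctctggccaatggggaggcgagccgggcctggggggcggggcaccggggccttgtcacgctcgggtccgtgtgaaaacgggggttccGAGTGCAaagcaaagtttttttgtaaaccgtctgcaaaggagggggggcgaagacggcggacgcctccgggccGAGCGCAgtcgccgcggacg

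The Mt1 window held 3 matches, at -23 to -17, 2 to 8 and 20 to 26 from the annotated start site. The Mt2 window held 4, the first at -223 to -217 and the last at 4 to 10, and the Slc30a1 window held 2, at -43 to -37 and 30 to 36. Of 32851 promoter windows of 300 bases in the same table, 25.7% held at least 1 match, 7.11% at least 2, 1.97% at least 3 and 0.517% at least 4. Slc30a5 had 1 match, and the windows of Mtf1, Slc30a7, Slc39a1 and Slc39a10 had none of these letters. Mt1 and Mt2 start 6471 bases apart on chromosome 8, beside the other mouse metallothionein genes Mt3 and Mt4, whose windows held 1 match each. A match is a description of the sequence and not a measured binding site. Each window follows 1 annotated RefSeq start, and the start used in these cells was not measured. Mt1, Mt2 and Slc30a1 have 3, 2 and 2 annotated transcripts, so matches nearer to another start would not be counted.

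FPKM is a level relative to the other transcripts of the same library, and 3 features of the libraries bear on every value below. The first is that most genes moved. In each of the 3 comparisons most tested genes passed (limma on log2(FPKM + 1), Benjamini-Hochberg adjusted p under 0.05). Across all tested genes the log2 change had a median of -0.82, -0.33 and 0.55 in these 3 comparisons. Dividing each library by the median ratio of its genes to their geometric means over the libraries (median-ratio scaling) brought those medians to -0.01, -0.06 and 0.04 and the called genes from 2230 higher and 7566 lower to 4673 and 4705, from 2432 and 5674 to 3351 and 3806, and from 7195 and 1785 to 3976 and 3863. A further feature is red blood cell RNA: globin transcripts took 16.7, 11.5 and 29.4% of total FPKM in LPS libraries 1, 2 and 3, but at most 0.221% in any library with EtOH or CPZ. Genes of other cells also differed between groups. Summed over 9 neutrophil genes the level was 3855 to 5421 FPKM with LPS alone, 43742 to 48314 with added EtOH and 6383 to 6889 with added CPZ. S100a8 and S100a9 made up 89.2 to 93.2% of that sum, and the other 7 genes gave 261 to 516, 3885 to 4389 and 688 to 732. Among these 7, Ly6g had group means of 16.9, 156 and 274 FPKM, so it carried much of their sum with CPZ. With CPZ against LPS, 3 of the 9 neutrophil genes were higher, 2 lower (Csf3r and Cxcr2) and 4 not passed. Of all tested genes 20.7% were higher and 48.4% lower there. The sum over 7 B cell genes was 1412 to 2032, 141 to 192 and 1187 to 1400, most of it Ighm, and the other 6 genes gave 410 to 621, 32.5 to 51.9 and 127 to 167. Sums over 8 macrophage genes were 1628 to 2111, 2757 to 3061 and 1113 to 1305 FPKM. Mertk was at or below 0.316 FPKM in all libraries and listed at 0 in 1 LPS+EtOH library. The group means of Cd14 were 907, 2177 and 406 FPKM, those of Lyz2 733, 226 and 217 and those of Cd68 55.5, 363 and 405. The higher sum with EtOH was therefore not shared by all 8 genes. Of 7 tested, 3 were higher and 3 lower with EtOH than with LPS (19.0% and 64.6% of all tested genes). With CPZ, 2 were higher and 4 lower than with LPS (20.7% and 48.4%). Over 7 T and NK cell genes the sums were 40.2 to 50.6, 0.772 to 1.57 and 8.30 to 16.5. In bulk RNA, fewer cells of a type and less RNA per cell cannot be told apart, and the part of these features in the results below was not tested. The step most often seen between low values would correspond to 27000000 to 39400000 fragments per library, but at most 28.7% of low values fell on whole steps (within 5% of a step), so depth is a rough estimate.

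Of the 9 genes, 5 were lower and 0 higher with EtOH than with LPS alone (limma, as above), where 64.6% of all tested genes were lower and 19.0% higher. With CPZ, 6 were lower and 2 higher than with LPS alone, where 48.4% of all tested genes were lower and 20.7% higher. Between the treatments, 6 were higher and 1 lower with CPZ than with EtOH, where 61.4% of all were higher and 15.2% lower. The counts alone therefore do not set the 9 genes apart. Their median log2 change was -1.32, -0.61 and 1.27, beside -0.82, -0.33 and 0.55 for all tested genes. Under median-ratio scaling the counts were 5 lower and 1 higher, 5 lower and 2 higher, and 5 higher and 2 lower. The first and second comparisons share the LPS libraries, so their values are given side by side without a measure of overlap.

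**Figure D1:**
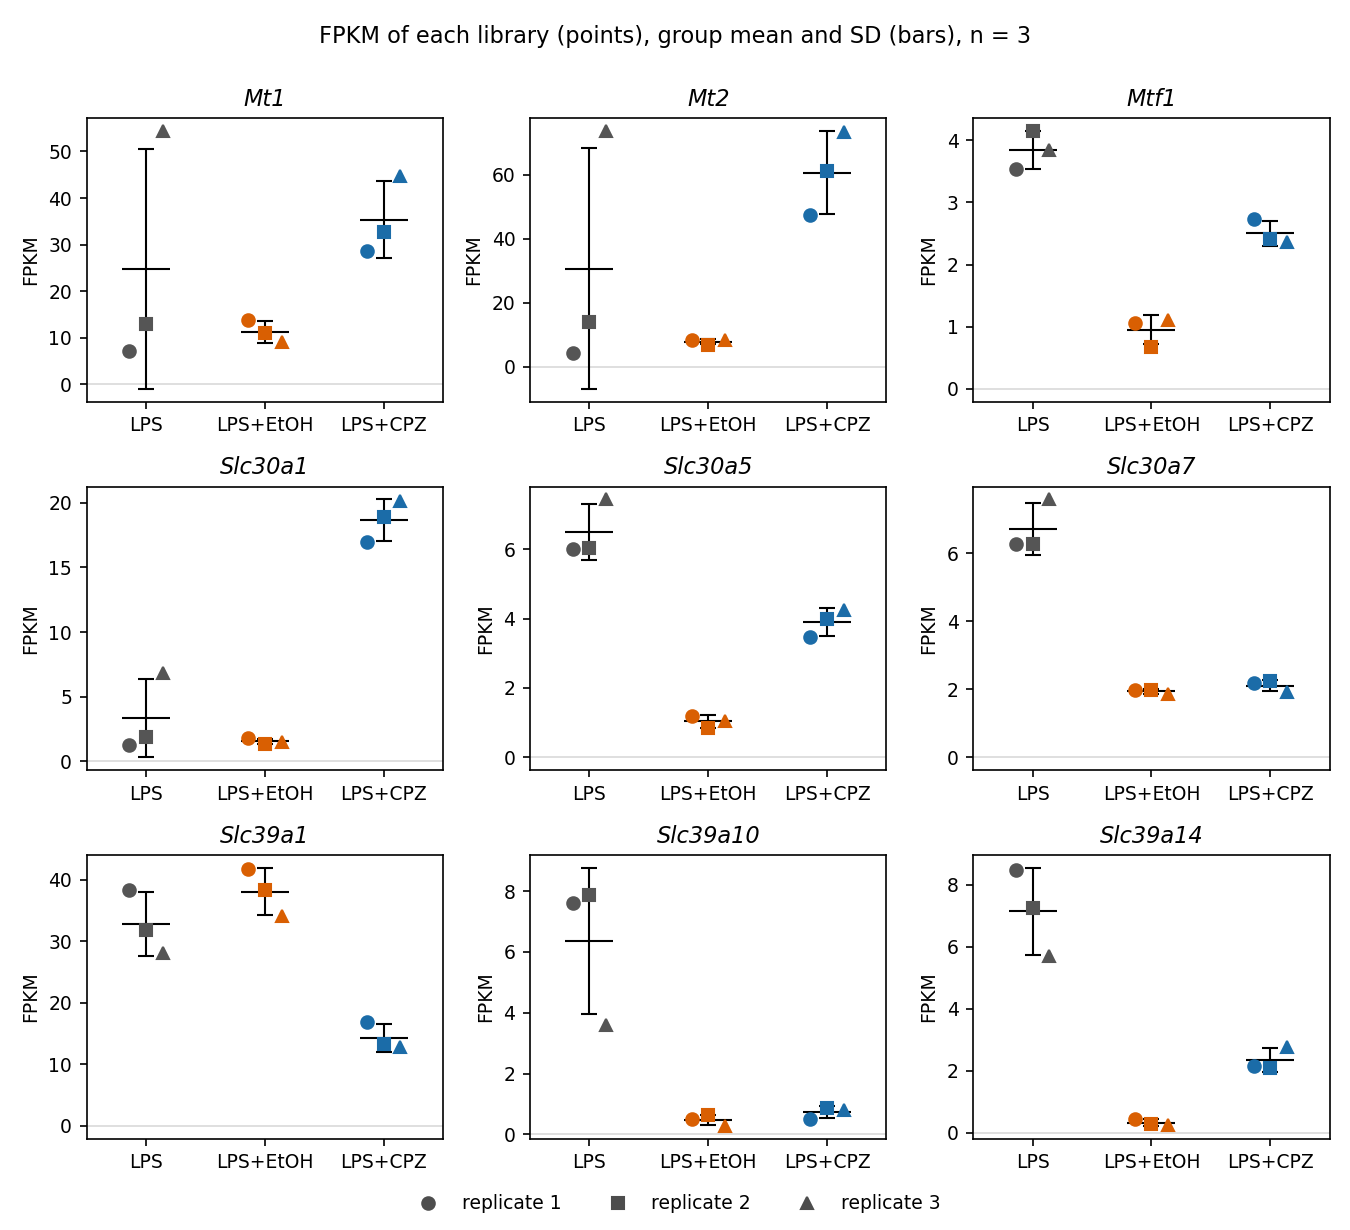
FPKM of the 9 genes in each of the 9 libraries (points, shape by replicate number), with the group mean and SD as bars (n = 3 libraries a group). Slc30a1 stands at 16.9 to 20.1 FPKM in LPS+CPZ and at or below 6.80 elsewhere, and LPS replicate 3 lies far above the other LPS libraries for Mt1, Mt2 and Slc30a1.

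**Figure D2:**
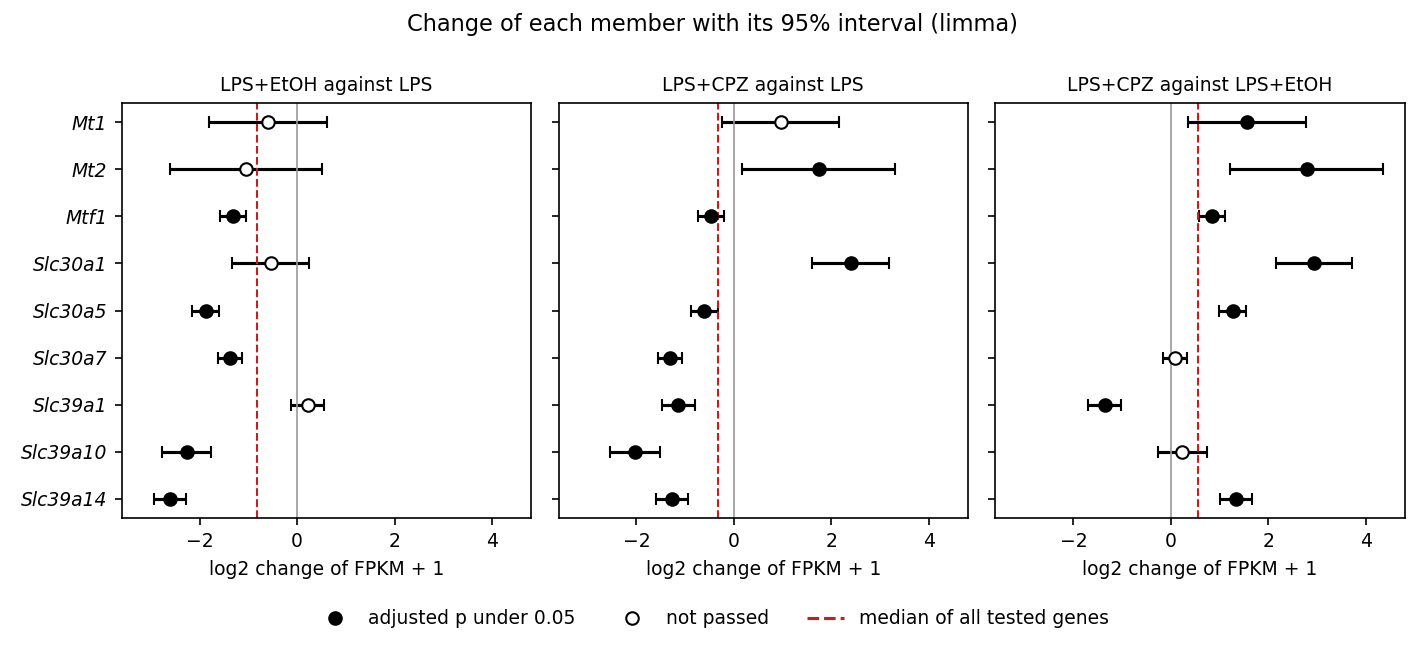
Log2 change of FPKM + 1 for each gene (points) with its 95% interval from limma, in the 3 comparisons. Filled points passed an adjusted p of 0.05, and the dashed line is the median of all tested genes (-0.82, -0.33 and 0.55).

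Slc30a1, which encodes the zinc exporter ZnT1 of the plasma membrane, was the member that rose most with CPZ on this scale. Its level was 1.30, 1.90 and 6.80 FPKM with LPS alone, 1.79, 1.39 and 1.52 with added EtOH and 16.9, 18.9 and 20.1 with added CPZ. Every LPS+CPZ library lay above every other library, while LPS and LPS+EtOH overlapped. The mean with CPZ was 5.60-fold that of LPS (log2 change 2.39 ± 0.35 SE, adjusted p = 0.00016) and 11.9-fold that of LPS+EtOH (2.94 ± 0.35, adjusted p = 3.36e-05). The call held under every scaling, filter, pseudocount and left-out library tried. With EtOH the log2 change against LPS was -0.54 ± 0.35 (95% interval -1.33 to 0.24, adjusted p = 0.174). That value changed sign to 0.25 under median-ratio scaling and 0.37 under quantile scaling, and was -0.01 without LPS replicate 3.

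Mt2 stood at 4.39, 14.0 and 73.7 FPKM with LPS alone, 8.30, 6.93 and 8.27 with added EtOH and 47.4, 61.2 and 73.3 with added CPZ. All LPS+CPZ libraries were above all LPS+EtOH libraries, and LPS replicate 3 was as high as the highest LPS+CPZ library. Mt2 was 7.74-fold higher with CPZ than with EtOH (log2 change 2.78 ± 0.70, adjusted p = 0.00429), a call kept under each alternative tried. Against LPS, the log2 change with CPZ was 1.74 ± 0.70 (adjusted p = 0.0474), just past the threshold with overlapping groups. The adjusted p over the alternatives ran from 7.83e-05 under median-ratio scaling without LPS replicate 3, where the log2 change was 2.96, to 0.173 without LPS replicate 1, where it was 0.86. Leaving out LPS replicate 2 (1.60) or any LPS+CPZ library (1.90, 1.72 and 1.59 for replicates 1, 2 and 3) also ended the call, as did pseudocounts of 0.1 and 5, no filter, quantile scaling, robust eBayes, a fit of the 2 groups alone and leaving out the globin genes (adjusted p = 0.0501 to 0.155). With EtOH the log2 change was -1.05 ± 0.70 (95% interval -2.61 to 0.52, adjusted p = 0.187), and it was 0.03 under median-ratio scaling.

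Mt1 stood at 7.09, 13.0 and 54.4 FPKM with LPS alone, 13.7, 11.1 and 9.03 with added EtOH and 28.7, 32.6 and 44.6 with added CPZ. As for Mt2, the LPS+CPZ and LPS+EtOH libraries did not overlap and LPS spanned both. Mt1 was 3.13-fold higher with CPZ than with EtOH (log2 change 1.56 ± 0.54, adjusted p = 0.0229). This call was lost under median-ratio scaling (0.78, adjusted p = 0.22) and quantile scaling (1.23, adjusted p = 0.124), with no filter on low values (adjusted p = 0.0977), and without LPS+EtOH replicate 2 (1.56) or 3 (1.42) or LPS+CPZ replicate 3 (1.38). Fitted on these 2 groups alone, with the LPS libraries left out, the same log2 change of 1.56 had an SE of 0.195 (adjusted p = 0.000102). Against LPS, the log2 change was 0.96 ± 0.54 with CPZ (95% interval -0.25 to 2.16, adjusted p = 0.14) and -0.60 ± 0.54 with EtOH (-1.81 to 0.61, adjusted p = 0.318). The value for EtOH turned to 0.50 under median-ratio scaling.

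LPS replicate 3 stood apart for these 3 genes. Its Mt1, Mt2 and Slc30a1 levels were 4.2, 5.28 and 3.57 times the higher of the other LPS libraries. Among 11710 genes, only 0.196, 0.128 and 0.231% had as large a ratio. Mtf1 did not share this, with 3.54, 4.15 and 3.84 FPKM in the same libraries. Replicate 3 also held the most red blood cell transcripts, 107458 FPKM over 6 genes against 52352 and 34791 in replicates 1 and 2, and the heat shock genes Hspa1a and Hspa1b, near-identical copies whose reads can be mixed, were 2.34 and 2.17 times the higher of the others. Some neutrophil genes were also high in it: Ngp stood at 4.62, 5.56 and 131 FPKM in LPS libraries 1, 2 and 3, Camp at 0.92, 1.14 and 13.0, Mmp8 at 4.62, 4.51 and 27.5 and Retnlg at 76.5, 76.0 and 199. Ly6g and Csf3r, also neutrophil genes, were instead lowest in replicate 3, at 0.553 and 0.557 times the higher of the others. The part of these differences in the metallothionein levels was not tested. Without replicate 3, Mt1 was higher with CPZ than with LPS (log2 change 1.75, adjusted p = 0.000356), Mt2 was higher by 2.76 and Slc30a1 by 2.92 (adjusted p = 6.91e-07), and with EtOH the 3 values were 0.19, -0.03 and -0.01, none of them passing. Without LPS replicate 1 instead, all 3 passed as lower with EtOH (-1.20, -1.92 and -0.89, adjusted p = 0.0386, 0.00685 and 0.0288). With median-ratio scaling and without replicate 3, an alternative chosen after seeing the data, all 3 passed as higher with EtOH (1.17, 0.93 and 0.65).

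**Figure D3:**
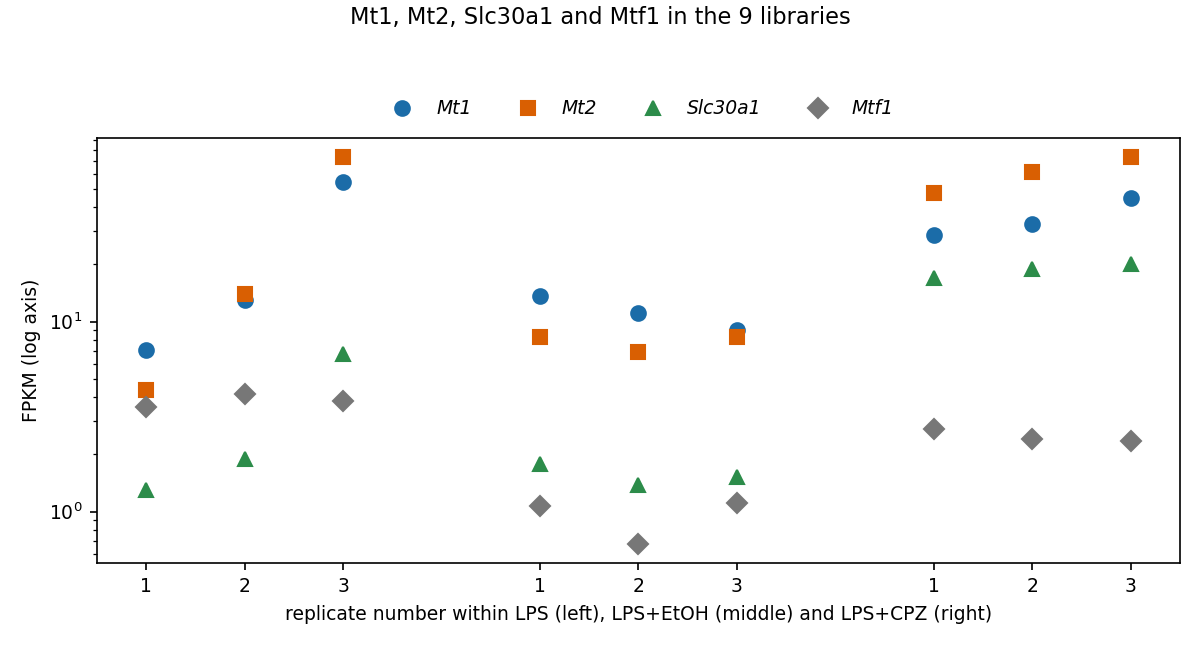
FPKM on a log axis of Mt1, Mt2, Slc30a1 and Mtf1 in the 9 libraries, 1 symbol per gene. Mt1, Mt2 and Slc30a1 are high together in the LPS+CPZ libraries and in LPS replicate 3, whereas Mtf1 stays at 3.54 to 4.15 FPKM in LPS and at 2.36 to 2.73 in LPS+CPZ.

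**Figure D4:**
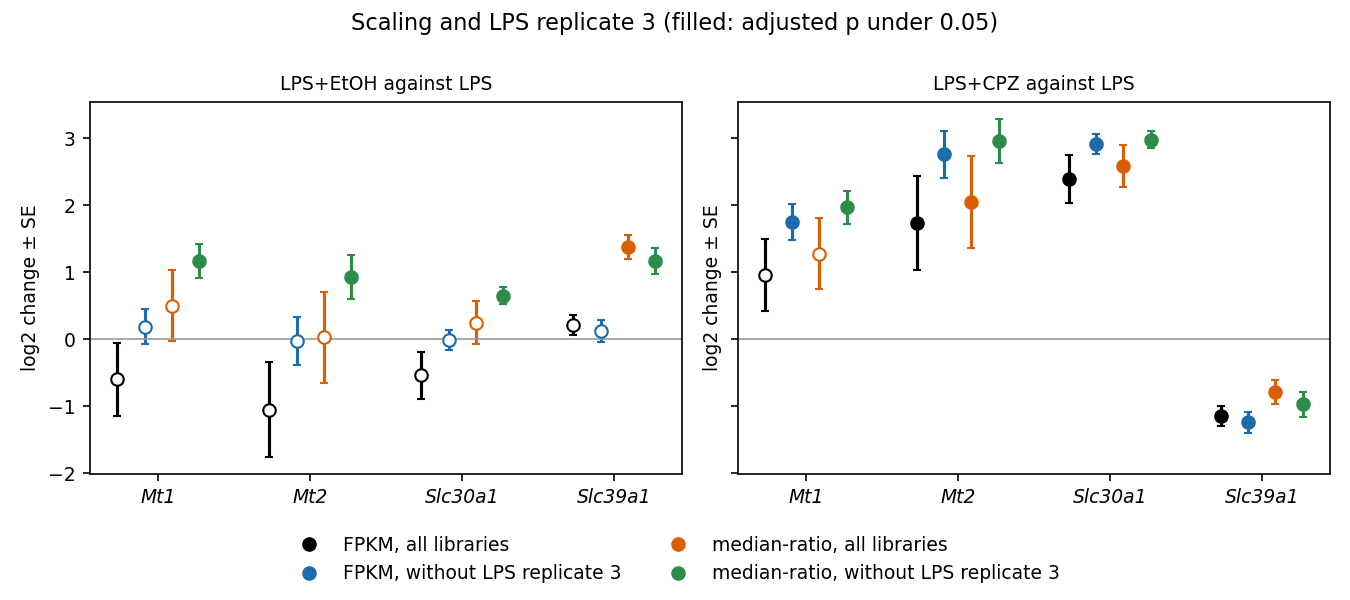
Log2 change ± SE of Mt1, Mt2, Slc30a1 and Slc39a1 against LPS with the deposited FPKM and with median-ratio scaling, each with all libraries and without LPS replicate 3. Filled points passed an adjusted p of 0.05, and Slc30a1 with CPZ is filled in all 4 settings.

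The balance between the 2 metallothioneins also differed. The ratio of Mt2 to Mt1 FPKM was 0.619, 1.08 and 1.36 with LPS alone, 0.604, 0.624 and 0.916 with added EtOH and 1.65, 1.88 and 1.64 with added CPZ. It was highest in the 3 LPS+CPZ libraries, without overlap, and among the LPS libraries it was highest in replicate 3. A single scaling factor per library leaves this ratio as it is, though quantile scaling does not, and it was looked at after the single genes, so no test is given. How the authors' tools share fragments between these related genes is not given in the sources used here. Summed, Mt1 and Mt2 reached 11.5, 26.9 and 128 FPKM with LPS alone, 22, 18 and 17.3 with added EtOH and 76.1, 93.9 and 118 with added CPZ. Mt3, a metallothionein best known from the brain, was listed at 0 in LPS, at 0.0588, 0 and 0 FPKM in LPS+EtOH and at 0.202, 0.448 and 0.398 in LPS+CPZ, too low to be tested, and Mt4 was listed at 0 in all libraries.

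Mtf1, the zinc sensor itself, had another order of groups than Mt1, Mt2 and Slc30a1. It stood at 3.54, 4.15 and 3.84 FPKM with LPS alone, 1.07, 0.679 and 1.12 with added EtOH and 2.73, 2.42 and 2.36 with added CPZ, and no 2 groups overlapped. It fell with EtOH (log2 change -1.32 ± 0.12, adjusted p = 2.04e-06) and was higher with CPZ than with EtOH (0.85 ± 0.12, adjusted p = 0.000102). The fall with CPZ against LPS was smaller (-0.47 ± 0.12, adjusted p = 0.00553), near the median of all genes, and did not pass under median-ratio (-0.18, adjusted p = 0.202) or quantile scaling (-0.10, adjusted p = 0.492). Quantile scaling also ended the call between CPZ and EtOH (0.26, adjusted p = 0.0803). The activity of the protein was not measured.

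Slc30a5 and Slc30a7 encode ZnT5 and ZnT7, which load zinc into the early secretory pathway for enzymes such as alkaline phosphatase. Slc30a5 stood at 6.01, 6.04 and 7.43 FPKM with LPS alone, 1.20, 0.849 and 1.05 with added EtOH and 3.46, 3.99 and 4.24 with added CPZ. The order LPS, LPS+CPZ, LPS+EtOH held without overlap. Its log2 change was -1.88 ± 0.12 with EtOH (adjusted p = 2.45e-07), -0.61 ± 0.12 with CPZ (adjusted p = 0.00134, but -0.27 and adjusted p = 0.0548 under quantile scaling), and 1.27 ± 0.12 between CPZ and EtOH (adjusted p = 9.41e-06). Slc30a7 stood at 6.26, 6.27 and 7.58 FPKM in LPS, 1.99, 1.99 and 1.86 with EtOH and 2.18, 2.23 and 1.91 with CPZ. Every LPS library lay above all treated libraries, and the treated groups overlapped. It fell by 1.38 ± 0.11 on the log2 scale with EtOH (adjusted p = 7.63e-07) and by 1.31 ± 0.11 with CPZ (adjusted p = 3.76e-06). Between the treatments the log2 change was 0.08 ± 0.11 (95% interval -0.17 to 0.32, adjusted p = 0.532), and it turned to a called -0.50 under median-ratio scaling (adjusted p = 0.00185) and -0.54 under quantile scaling (adjusted p = 0.00152).

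Among the importers, Slc39a1, which encodes the plasma membrane importer ZIP1, had the highest FPKM of the 9 genes in every LPS+EtOH library. It stood at 38.4, 31.9 and 28.1 FPKM with LPS alone, 41.8, 38.3 and 34.2 with added EtOH and 16.8, 13.2 and 12.8 with added CPZ. LPS and LPS+EtOH overlapped, and all LPS+CPZ libraries lay below both. Slc39a1 fell by 1.14 ± 0.15 on the log2 scale with CPZ against LPS (adjusted p = 7.22e-05) and was 2.67-fold lower than with EtOH (log2 change -1.36 ± 0.15, adjusted p = 1.93e-05). With EtOH against LPS the log2 change was 0.22 ± 0.15 (95% interval -0.12 to 0.55, adjusted p = 0.198), and this value rests on the scaling: 1.38 under median-ratio scaling (adjusted p = 4.97e-05), 0.39 under quantile scaling (adjusted p = 0.0424) and -0.19 with the globin genes left out (adjusted p = 0.303).

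Slc39a14 encodes ZIP14, an importer of zinc, manganese and iron not bound to transferrin that is known as an inflammation-responsive gene. It stood at 8.48, 7.24 and 5.69 FPKM with LPS alone, 0.436, 0.272 and 0.244 with added EtOH and 2.16, 2.08 and 2.77 with added CPZ. The 3 groups were apart, with LPS highest and LPS+EtOH lowest. Its mean was 22.5-fold lower with EtOH than with LPS (log2 change of FPKM + 1 -2.62 ± 0.15, adjusted p = 1.02e-07), and 3.06-fold lower with CPZ (-1.28 ± 0.15, adjusted p = 2.91e-05). CPZ exceeded EtOH by 1.34 ± 0.15 on that scale (adjusted p = 1.85e-05). The LPS+EtOH values rest on few fragments, an estimated 34 to 73 per library if the longest annotated transcript of 5117 bases is taken.

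Slc39a10 encodes ZIP10, a plasma membrane zinc importer known from B cells and macrophages. It stood at 7.62, 7.86 and 3.59 FPKM with LPS alone, 0.515, 0.628 and 0.281 with added EtOH and 0.523, 0.878 and 0.802 with added CPZ. Both treated groups lay below every LPS library and overlapped each other, and LPS replicate 3 was the lowest of the LPS libraries. The log2 change was -2.27 ± 0.23 with EtOH (adjusted p = 4.16e-06) and -2.03 ± 0.23 with CPZ (adjusted p = 2.56e-05). Between the treatments it was 0.24 ± 0.23 (95% interval -0.27 to 0.74, adjusted p = 0.363), with the sign turned under median-ratio (-0.08) and quantile scaling (-0.34). The treated values rest on few fragments, an estimated 42 to 110 per library with EtOH and 81 to 156 with CPZ. These estimates take the longest annotated transcript of 5498 bases. Of the 7 B cell genes whose sums are given above, 7 were lower with EtOH and 6 with CPZ than with LPS. Of all tested genes 64.6% and 48.4% were lower there. The part of B cells in the fall of Slc39a10 was not tested.

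Both transporter families are described next as a whole, and their counts include the members already given above. Of 10 SLC30 genes 6 were tested: 4 were lower and 0 higher with EtOH than with LPS (64.6% and 19.0% of all tested genes). With CPZ, 4 were lower and 2 higher than with LPS (48.4% and 20.7%), and 4 higher and 1 lower than with EtOH (61.4% and 15.2%). The median log2 change of the 6 was -0.96, -0.60 and 0.91, beside -0.82, -0.33 and 0.55 for all tested genes. Under median-ratio scaling the counts were 3 lower and 2 higher, 3 and 2, and 4 higher and 2 lower. Slc30a4, an exporter of endosomes and lysosomes, fell from 4.98 ± 1.07 FPKM (SD, n = 3) in LPS to 0.235 ± 0.10 with EtOH and 1.05 ± 0.098 with CPZ (log2 change -2.26 and -1.53, adjusted p = 1.32e-07 and 4.6e-06). Slc30a6, whose product pairs with ZnT5, stood at 4.67 ± 0.542, 4.23 ± 0.222 and 2.77 ± 0.087 FPKM, lower with CPZ than with EtOH (-0.47, adjusted p = 0.00253) and than with LPS (-0.59, adjusted p = 0.000745, but -0.29 and adjusted p = 0.0511 under median-ratio scaling). Its log2 change with EtOH against LPS was -0.11 (adjusted p = 0.343), and 0.86 under median-ratio scaling. Slc30a9, whose product is linked to mitochondrial zinc export, rose with CPZ from 3.42 ± 0.117 to 5.50 ± 0.398 FPKM (0.56, adjusted p = 0.000772, but 0.26 and adjusted p = 0.0731 with the globin genes left out). With EtOH it was at 2.06 ± 0.180 (-0.53, adjusted p = 0.000671), a direction that flipped under median-ratio (0.34) and quantile scaling (0.45). Slc30a8 and Slc30a10 were listed at 0 in all libraries.

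Slc30a1 made up most of the summed level of this family with CPZ. Its share was 4.59, 7.22 and 19.8% of the summed SLC30 FPKM in LPS libraries 1, 2 and 3, 13.0 to 14.8% in LPS+EtOH and 52.4 to 57.0% in LPS+CPZ. The sum itself was 26.3 to 34.4 FPKM with LPS alone, 10.7 to 12.1 with added EtOH and 32.3 to 35.3 with added CPZ, so the totals of the LPS and LPS+CPZ libraries overlapped while their make-up differed. A single scaling factor per library leaves these shares as they are, though quantile scaling does not.

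Of 14 SLC39 genes 10 were tested: 8 were lower and 1 higher with EtOH than with LPS, 6 lower and 2 higher with CPZ, and 7 higher and 1 lower with CPZ than with EtOH, with medians of -1.10, -0.42 and 0.68. The shares and medians over all tested genes, 64.6% lower and -0.82, 48.4% lower and -0.33, and 61.4% higher and 0.55, point the same way. Under median-ratio scaling 6 were lower and 2 higher, 4 and 2, and 6 higher and 1 lower. Slc39a4, the gene for the zinc importer best known from the intestine, went the other way from most: it rose from 17.1 ± 3.22 FPKM in LPS to 32.8 ± 2.65 with EtOH (0.91, adjusted p = 0.000112) and 53.4 ± 2.81 with CPZ (1.60, adjusted p = 4.81e-06). Both rises passed under every scaling tried, while its difference between CPZ and EtOH (0.69, adjusted p = 0.00115) was -0.12 under median-ratio scaling. Slc39a6 stood at 12.7 ± 1.16, 1.12 ± 0.147 and 6.77 ± 0.778 FPKM and fell with both EtOH (-2.69, adjusted p = 4.26e-08) and CPZ (-0.82, adjusted p = 0.000156). Slc39a7, whose product releases zinc from the endoplasmic reticulum, fell with EtOH from 14.3 ± 2.60 to 3.78 ± 0.273 FPKM (-1.66, adjusted p = 1.4e-06). With CPZ it was at 19.9 ± 2.33 (0.47, adjusted p = 0.0148, but 0.11 and adjusted p = 0.489 with the globin genes left out). The weakly expressed Slc39a11 and Slc39a3 stood at 1.89 ± 0.244 and 2.21 ± 0.078 FPKM in LPS and 0.279 ± 0.11 and 0.628 ± 0.088 in LPS+EtOH, and both were lower with EtOH (-1.17 and -0.98, adjusted p = 4.46e-06 and 1.25e-05), although Slc39a3 was at -0.11 under quantile scaling (adjusted p = 0.346).

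The make-up of the importer pool differed between groups. Slc39a1 was 30.3 to 37.2% of the summed SLC39 FPKM in LPS, 44.1 to 52.1% in LPS+EtOH and 12.4 to 15.6% in LPS+CPZ, with no overlap between groups. Slc39a4 was 15.7 to 19.3%, 37.4 to 45.5% and 49.3 to 53.1%, also apart. The sum ranged over 87.9 to 105 FPKM with LPS alone, 77.5 to 80.2 with added EtOH and 99.8 to 107 with added CPZ.

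**Figure D5:**
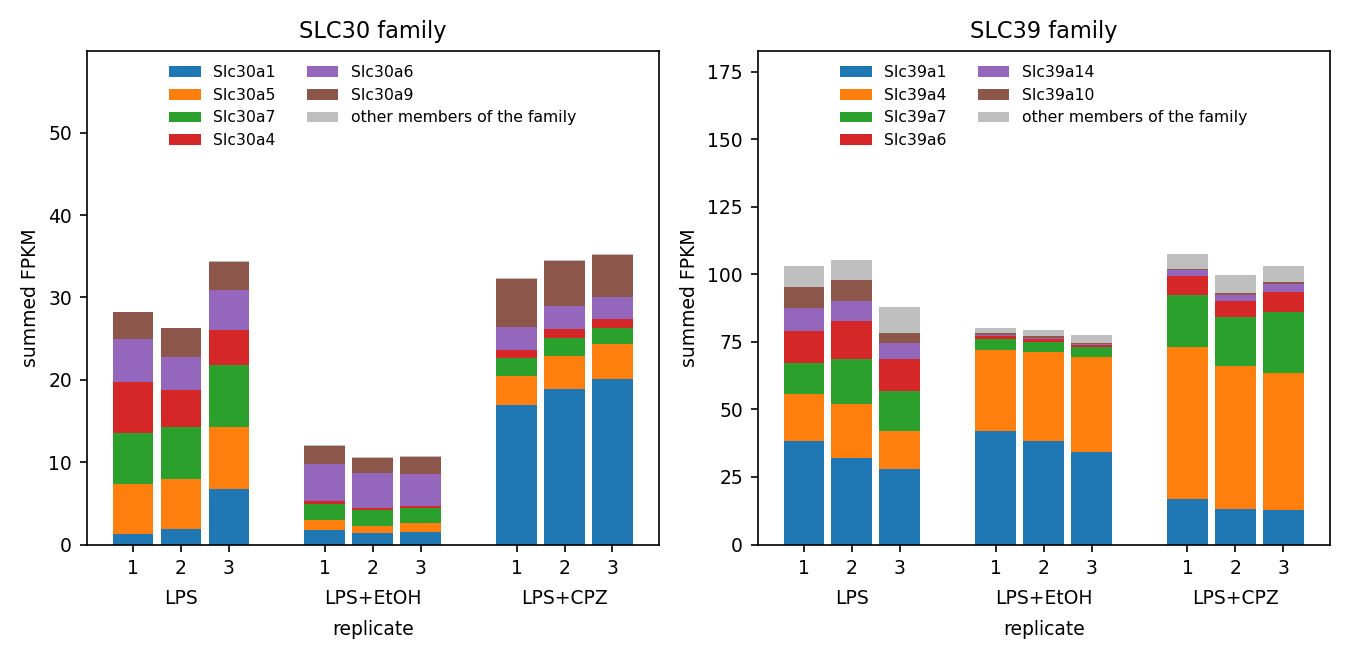
Summed FPKM of the SLC30 (left) and SLC39 (right) genes in each library, stacked by gene. Slc30a1 fills 52.4 to 57.0% of the SLC30 bar in LPS+CPZ, and Slc39a4 takes 49.3 to 53.1% of the SLC39 bar there, while Slc39a1 takes 44.1 to 52.1% in LPS+EtOH.

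The genes that handle other divalent metals were mixed. Of the 6 in this list, which includes Mtf1, 2 were higher and 2 lower with EtOH than with LPS (19.0% and 64.6% of all tested genes). With CPZ, 3 were higher and 1 lower than with LPS (20.7% and 48.4%). Between CPZ and EtOH 4 were higher and 0 lower with CPZ, where 61.4% of all tested genes were higher. Under median-ratio scaling these counts were 4 higher and 2 lower, 4 and 0, and 3 and 1, and with the globin genes left out 2 were higher and 4 lower with EtOH. Slc40a1, the iron exporter ferroportin, stood at 10.5 ± 2.84, 46.2 ± 5.01 and 73.0 ± 4.22 FPKM in LPS, LPS+EtOH and LPS+CPZ (log2 change 2.07 with EtOH and 2.72 with CPZ, adjusted p = 1.31e-06 and 7.34e-07). Slc11a1, the metal transporter of phagosomes, stood at 95.1 ± 24.5, 392 ± 30.8 and 462 ± 28.7 FPKM (2.06 and 2.30, adjusted p = 1.57e-06 and 2.54e-06). Slc11a2, the divalent metal transporter DMT1, stood at 18.8 ± 1.33 FPKM with CPZ against 6.98 ± 1.52 in LPS (1.32, adjusted p = 8.99e-05) and 6.59 ± 1.51 in LPS+EtOH (1.40, adjusted p = 5.13e-05). Tmem163, a zinc-binding efflux protein, stood at 1.64 ± 0.501, 0.0915 ± 0.040 and 1.26 ± 0.499 FPKM and fell with EtOH (-1.26, adjusted p = 4.89e-05).

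Genes for proteins that withhold zinc and other metals from microbes outside the cell rose with EtOH. All 5 tested, S100a8, S100a9, Lcn2, Ltf and Hp, were higher with EtOH than with LPS, where 19.0% of all tested genes were higher. Their median log2 change was 2.40, beside -0.82 for all tested genes. S100a9, a subunit of the zinc-binding calprotectin, stood at 3369 ± 551 FPKM with LPS alone, 33420 ± 2070 with added EtOH and 3208 ± 99.4 with added CPZ, higher with EtOH (3.32, adjusted p = 8.46e-08) and lower with CPZ than with EtOH (-3.38, adjusted p = 3.05e-07). Its partner S100a8 stood at 995 ± 138, 9141 ± 648 and 2752 ± 150 FPKM, and rose with CPZ too (1.47, adjusted p = 2.16e-05). With CPZ against LPS, 2 of the 5 were higher (S100a8 and Lcn2) and 2 lower (Ltf and Hp, the latter not passing under median-ratio or quantile scaling). Of all tested genes 20.7% were higher and 48.4% lower there. All 5 were lower with CPZ than with EtOH, where 15.2% of all tested genes were lower. S100a8 and S100a9 are also neutrophil markers and carry most of the neutrophil sum given above. The other 7 neutrophil genes were all higher with EtOH than with LPS, and between CPZ and EtOH 6 of them were lower and Ly6g was higher (0.81, adjusted p = 0.00285). Whether the source is macrophages or neutrophils was not tested.

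By the likeness of their levels over the 9 libraries (root mean square difference of log2(FPKM + 1), each gene centred on its mean), the gene nearest to Mt2 among 4659 genes with a mean of at least 5 FPKM was Slc30a1 (0.564), followed by Mt1 (0.583) and Tmco4 (0.753). For Mt1 the order was Bnip3l (0.503), Mt2 (0.583) and Pink1 (0.621), with Bnip3l at 19.4, 14.6 and 40.1 FPKM in the LPS libraries, so it too was highest in replicate 3. For Slc30a1 it was Cat (0.395), Plcxd2 (0.419) and Hsp90aa1 (0.444), all high with CPZ. The genes nearest to Slc39a14 were Car13 (0.080), Rcan1 (0.154) and Cd38 (0.154), and those nearest to Slc39a10 were Rsad2 (0.172), Fgl2 (0.187) and Cluh (0.212). Mtf1 lay within 0.063 to 0.064 of Pcnp, Sprtn and Ppp2r5e, with a pattern shared by many genes that were highest in LPS and lowest with EtOH. The libraries of a group share their treatment, so nearness here describes the 3 group levels and, for Mt1 and Mt2, replicate 3 of LPS.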

How the data were processed

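Values are FPKM per gene as deposited. Per the labels' protocols, pooled RNA was made into stranded TruSeq libraries and sequenced on an Illumina instrument. FastQC 0.11.2, StringTie and STAR appear in the submitters' processing notes, versions of the latter 2 not given in the sources used here. These notes name build hg38 although the gene IDs are those of mouse (55154 of 55335 found in GENCODE M21), so coordinates come only from the RefSeq promoter table. FPKM rests on an estimate of each gene's transcript length and holds no counts.

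A total of 11721 genes reached 1 FPKM in 3 or more libraries and were compared as log2(FPKM + 1) with limma 3.58.1 in R 4.3.3 (1 fit of all 9 libraries with group alone, eBayes with trend, residual df 6, two-sided, Benjamini-Hochberg over all tested genes, threshold 0.05). Log2 changes are on that scale, which understates changes of low genes, and folds are ratios of mean FPKM. The fit was also run on simulated data in which few genes were changed. In the real data most tested genes passed, so that run does not bear on the choice of scaling. Python 3.11.15 with numpy 2.4.6, pandas 2.3.3 and matplotlib 3.10.9 did the rest.

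Named beside the 9 genes are, per list, up to 3 tested genes with the smallest adjusted p in each comparison and 1 of the other direction, and the 3 nearest genes by likeness. Mt3, Mt4, Slc30a8, Slc30a10, Hspa1a, Slc7a11, Mertk, Ngp, Camp, Mmp8 and Csf3r were named after their values were seen. The members, lists and tests were chosen with earlier results of these data known. Alternatives were other pseudocounts, filters and scalings, other variance fits, fits of the compared groups alone, a replicate block, each library left out, globin genes left out, and median-ratio scaling without LPS replicate 3, the last 2 added after the data were seen.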

Additional observations from a re-analysis of the deposited data

How the results depend on the processing

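Counts are of the 9 genes. With EtOH against LPS, the 0 higher became 1 under median-ratio and quantile scaling and 4 under median-ratio scaling without LPS replicate 3, and the 5 lower became 3 with a filter of 5 FPKM, under which Mtf1 and Slc39a10 were not tested. With CPZ against LPS, the 2 higher became 1 with pseudocounts of 0.1 and 5, no filter, quantile scaling, robust eBayes, only the 2 groups compared, or globin genes left out, and 1 to 3 when single libraries were left out. The 6 lower became 5 under median-ratio scaling, 4 under quantile scaling and 3 under median-ratio scaling without LPS replicate 3. Between CPZ and EtOH, the 6 higher became 5 under median-ratio scaling and 4 under quantile scaling, and the 1 lower became 2 under both. Slc39a10 was not tested when an LPS library was left out or, between CPZ and EtOH, with those 2 groups alone. The causes were not tested.

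Signs changed with EtOH against LPS for Mt1 (0.50 under median-ratio scaling, 1.17 with LPS replicate 3 also left out, and -1.20 to 0.19 over single libraries left out), Mt2 (0.03 and 0.93), Slc30a1 (0.25, 0.65, and 0.37 under quantile scaling) and Slc39a1 (-0.19 with globin genes left out). Between CPZ and EtOH they changed for Slc30a7 (-0.50 median-ratio, -0.54 quantile) and Slc39a10 (-0.08, -0.34). Over all tested genes, median-ratio and quantile scaling moved the 2230 higher and 7566 lower with EtOH to 4673 and 4705 and to 4160 and 4633, and the 7195 higher and 1785 lower between CPZ and EtOH to 3976 and 3863 and to 3844 and 3144. Without LPS replicate 3, median-ratio scaling gave 4249 and 4114 with EtOH, and 3217 lower with CPZ against 5674.

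The labels do not say whether libraries with the same replicate number share a source. Deviations of same-numbered libraries correlated at -0.006 to 0.260 over genes, and those of other pairs from different groups at -0.204 to 0.127. Libraries did not always correlate best with their own number, so they were not taken as paired. The replicate block changed no call of the 9 genes (Mt2 with CPZ against LPS 1.74, adjusted p = 0.0222). Depth is known only as an estimate, which limits what can be said of values under about 1 FPKM.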

Other observations

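Copper genes did not move as one group. Of 8 tested, 4 were higher and 4 lower with EtOH than with LPS (19.0% and 64.6% of all tested genes). With CPZ, 4 were higher and 1 lower than with LPS (20.7% and 48.4%). The median log2 changes of the 8 were -0.26 and 0.36, beside -0.82 and -0.33 for all tested genes. Between CPZ and EtOH 4 were higher and 3 lower (61.4% and 15.2% of all tested genes). Under median-ratio scaling these counts were 4 higher and 1 lower, 5 and 1, and 2 and 4, and with globin genes left out 2 were higher and 1 lower with CPZ. Slc31a2, which releases copper from endosomes, stood at 33.7 ± 6.12, 191 ± 13.6 and 108 ± 8.93 FPKM (SD, n = 3) in LPS, LPS+EtOH and LPS+CPZ, higher with EtOH (2.48, limma adjusted p = 1.15e-07) and with CPZ (1.66, adjusted p = 4.22e-06) than with LPS. The copper chaperone Atox1 stood at 20.1 ± 4.31, 77.0 ± 6.45 and 33.9 ± 6.06 FPKM (1.90 with EtOH, adjusted p = 1.91e-06). Sco1, which delivers copper to cytochrome c oxidase, was lower with both (-1.41 and -0.84, adjusted p = 8.22e-07 and 8.79e-05).

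Of 10 genes induced by oxidants, thiol-reactive agents and metals, 7 were higher with EtOH than with LPS, 9 with CPZ than with LPS and 9 with CPZ than with EtOH, and 0 were lower. The shares of all tested genes higher were 19.0, 20.7 and 61.4%. The median log2 changes of the 10 were 1.10, 3.25 and 2.31. Under median-ratio scaling 10, 10 and 6 were higher, with medians of 2.27, 3.55 and 1.49, and 1 was lower between CPZ and EtOH. With globin genes left out, 6 were higher and 1 lower with EtOH. Slc7a11 passed in none of the 3 comparisons on the deposited scale, and Dnajb1 and Hsph1 did not pass with EtOH. Hmox1, heme oxygenase 1, stood at 518 ± 30.1, 3819 ± 521 and 13773 ± 2002 FPKM (2.87 with EtOH and 4.72 with CPZ, adjusted p = 1.5e-07 and 5.82e-08). Gclc, the catalytic subunit of glutathione synthesis, stood at 44.6 ± 4.18, 58.9 ± 11.6 and 685 ± 86.1 FPKM (3.91 with CPZ, adjusted p = 6.35e-08). The chaperone gene Hsph1 stood at 7.58 ± 2.95, 5.86 ± 1.75 and 89.8 ± 24.0 FPKM, with -0.29 for EtOH (adjusted p = 0.355) and 3.43 for CPZ (adjusted p = 3.49e-06). In LPS replicate 3, where Mt1, Mt2 and Slc30a1 were high, Hmox1 stood at 549 FPKM beside 516 and 489 in the other LPS libraries. Other genes of the list were mixed there. In LPS libraries 1, 2 and 3 Hspa1a stood at 6.88, 14.0 and 32.8 FPKM and Hsph1 at 4.63, 7.59 and 10.5. Gclm stood at 15.8, 19.5 and 12.4 FPKM and Slc7a11 at 345, 297 and 240, both lowest in replicate 3. What sets replicate 3 apart was not tested.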
